A study of Mus musculus with 18 samples.

Results

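The genes described here are 9 genes of the interferon response and of RNA sensing, *Ddx58*, *Ifih1*, *Irf7*, *Ifit1*, *Ifit3*, *Oasl2*, *Bst2*, *Isg15* and *Usp18*, chosen by name from the 18659 genes measured by RNA-seq in 16 libraries of serum-grown mouse embryonic stem cells (mESCs). They were chosen with earlier results of these data known, and all 9 were found in the table. The cells were male E14 mESCs, a wild-type line grown on gelatin in serum with LIF, and every siRNA treatment lasted 24 h. Replicate set 1 held 1 library of scrambled control siRNA (scr) and 3 libraries (1a, 1b and 1c) of the SmartPool siRNAs against *Stag1* (SP). *Stag1* encodes a subunit of cohesin, the ring complex that holds chromosomes and shapes chromatin loops. Sets 2 and 3 each held scr, SP, 3p, 5p and SATS, 1 library per treatment. Cells left untreated were added in set 2 only, and a luciferase control siRNA in set 3 only. The 3p and 5p siRNAs were aimed at the 3′ and the 5′ end of the *Stag1* message. The methods give 5p as a single custom duplex, and by their numbers the 3p siRNAs are also part of the SP pool. SP and 3p are therefore not separate reagents. SATS was an enzymatically prepared mixture against the messages that begin at an upstream start site. The luciferase control was of that enzymatic kind too, whereas scr is given by a catalogue number, so only luciferase matches SATS in kind. The study calls its replicate libraries independent, but neither it nor the labels say that the sets were separate cultures, so p-values measure the spread between these libraries, which may be technical in part. Libraries are pools of cells, so fewer cells of a kind and less RNA per cell cannot be told apart.

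RIG-I, the product of *Ddx58*, and MDA5, the product of *Ifih1*, are cytoplasmic helicases that bind double-stranded RNA. Through the adaptor MAVS they activate the factors IRF3, IRF7 and NF-kB, which switch on interferon genes. Interferon then acts through its receptors, JAK kinases and STAT factors on a promoter element, the interferon-stimulated response element, and raises antiviral effectors such as the IFIT proteins, the OAS-like proteins, tetherin (*Bst2*) and the ubiquitin-like modifier ISG15 with its protease USP18. Pluripotent cells are known for a weak interferon response. siRNAs are themselves short double-stranded RNAs, so the comparison asks whether these genes stood at another level in the *Stag1* knockdowns (KDs) than in cells given control siRNA or none.

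The promoters of the members are shown first, because the response element is a known feature of interferon-stimulated genes. The core searched for was GAAANNGAAA or its other-strand form TTTCNNTTTC, on RefSeq promoters running from 250 bases before to 50 bases after the start (GRCm38.p6). Of the 9 members, 8 had a promoter in the RefSeq table, *Usp18* being the other, and 6 of the 8 held the core (75.0%), against 3.99% of 27025 genes and 3.44% of 32851 promoters. This is a description, since the genes were named for their place in the pathway. The core lay ahead of the start in *Isg15* (3 overlapping matches, the nearest beginning 66 bases before), *Ifit1* (2 matches, 85 and 104 bases before), *Ifit3* (2 matches, 122 and 156 bases before) and *Bst2* (2 overlapping matches, 124 and 130 bases before). In both sensors it lay behind the start, beginning 2 bases after it in *Ddx58* and 32 bases after it in *Ifih1*. These letters were not in the windows of *Oasl2* and *Irf7*. The gamma-activated sequence, TTCNNNGAA, was in 1 of the 8 windows, that of *Bst2* (12.5%, against 9.55% of genes). The lines below give the stretch around the first match for 4 members, 5′ to 3′ along the gene, with the matching letters in capitals: *Ifit1* at chr19:34640765-34640814 (plus strand), *Ifit3* at chr19:34583353-34583402 (plus strand), *Ifih1* at chr2:62646206-62646243 (minus strand) and *Bst2* at chr8:71537573-71537622 (minus strand).
*Ifit1*: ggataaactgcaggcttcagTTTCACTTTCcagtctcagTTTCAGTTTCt
*Ifit3*: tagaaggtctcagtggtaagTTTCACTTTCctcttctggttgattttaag
*Ifih1*: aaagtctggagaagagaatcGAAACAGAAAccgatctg
*Bst2*: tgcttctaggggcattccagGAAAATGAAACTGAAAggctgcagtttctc

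The whole 300-base window is given for the 2 members that a test called in 1 of the KDs, both on the minus strand: *Ddx58* at chr4:40239776-40240075 and *Isg15* at chr4:156200769-156201068. Capitals again mark the core, which sits at the start itself in *Ddx58* and in a run of GAAA repeats ahead of it in *Isg15*.
*Ddx58*: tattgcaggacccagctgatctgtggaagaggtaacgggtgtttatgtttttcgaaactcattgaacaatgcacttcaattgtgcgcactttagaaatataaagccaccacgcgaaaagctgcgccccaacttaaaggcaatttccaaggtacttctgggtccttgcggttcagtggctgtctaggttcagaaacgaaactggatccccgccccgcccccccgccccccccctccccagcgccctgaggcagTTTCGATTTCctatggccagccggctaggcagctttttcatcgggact
*Isg15*: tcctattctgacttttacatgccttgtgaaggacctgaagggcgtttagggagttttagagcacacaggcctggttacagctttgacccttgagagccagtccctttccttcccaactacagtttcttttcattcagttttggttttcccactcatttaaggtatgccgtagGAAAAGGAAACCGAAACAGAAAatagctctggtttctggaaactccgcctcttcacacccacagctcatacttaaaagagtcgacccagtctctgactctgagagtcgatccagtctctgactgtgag

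Values are normalised read counts, that is, reads per gene over a size factor of the library. The 12 libraries of sets 2 and 3 held 32137666 to 45660840 reads on genes, so that 1 read was worth 0.353 to 0.479, and the 4 libraries of set 1 held 9023224 to 14040830, of which 69.2% to 79.1% fell on the ribosomal RNA gene *Rn45s*, so that 1 read was worth 3.22 to 8.05. In set 1 the 7 members other than *Ddx58* and *Bst2* together had 1 to 11 reads per library, against 121 to 290 in sets 2 and 3, and values of set 1 are therefore given below only for *Ddx58* and *Bst2*. The target *Stag1* stood at 17.3% to 23.5% of scr in SP, 3p and 5p of sets 2 and 3, at 25.4% to 32.8% in SP of set 1, and at 50.5% and 49.7% in SATS. It was at 86.3% of scr in untreated cells and 104% with luciferase siRNA. Summed stem cell markers (6 genes, among them *Pou5f1*, *Sox2* and *Nanog*) were at 21515 to 31470 in sets 2 and 3. The 8 fibroblast markers summed to 2956 in scr of set 2 and 582 in scr of set 3, and over all libraries to 384 (5p of set 3) to 5822 (untreated). The 6 blood cell and macrophage markers in the table summed to 85.0 to 159.

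All 9 members are protein-coding genes, and values count reads over their exons (positions in GRCm38, GENCODE). *Ifit3* (chr19:34583531-34588731, plus strand) and *Ifit1* (chr19:34640871-34650009, plus) are neighbours on chromosome 19. *Isg15* (chr4:156199424-156200818, minus) and *Ddx58* (chr4:40203773-40239828, minus) are both on chromosome 4, far apart. The others are *Oasl2* (chr5:114896936-114912234, plus), *Irf7* (chr7:141262706-141266481, minus), *Ifih1* (chr2:62595798-62646255, minus), *Bst2* (chr8:71534255-71537456, minus) and *Usp18* (chr6:121245906-121270917, plus).

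Per kilobase of exon, the members covered a wide range of levels in the 12 libraries of sets 2 and 3. *Bst2* was highest, with a median of 355 normalised reads per kb, and its mean (354) was above that of 89.7% of 17937 genes with a length. *Ddx58* followed at a median of 67.3 per kb, and its mean (72.2) was above that of 63.0% of genes. The others were low: *Isg15* at 15.7 per kb, *Oasl2* at 6.97, *Ifih1* at 2.60, *Usp18* at 1.94, *Ifit1* at 1.35, *Ifit3* at 0.252 and *Irf7* at 0.207. Ranges of neighbours in this order did not overlap between *Bst2* (320 to 395), *Ddx58* (40.9 to 99.1) and *Isg15* (5.77 to 32.2), whereas *Ifih1*, *Usp18* and *Ifit1* overlapped. The RNA sensor RIG-I and tetherin were thus the members with a sizeable message, while *Usp18*, *Ifit1*, *Ifit3* and *Irf7* had 20 reads or fewer in every library. Reads of *Ifit1* and *Ifit3*, and of *Oasl2*, may be shared with related genes, which was not tested. *Irf7* and *Usp18* overlap a gene on the opposite strand by 45 and 124 exon bases. The low values of these genes are uncertain in that respect.

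**Figure D1:**
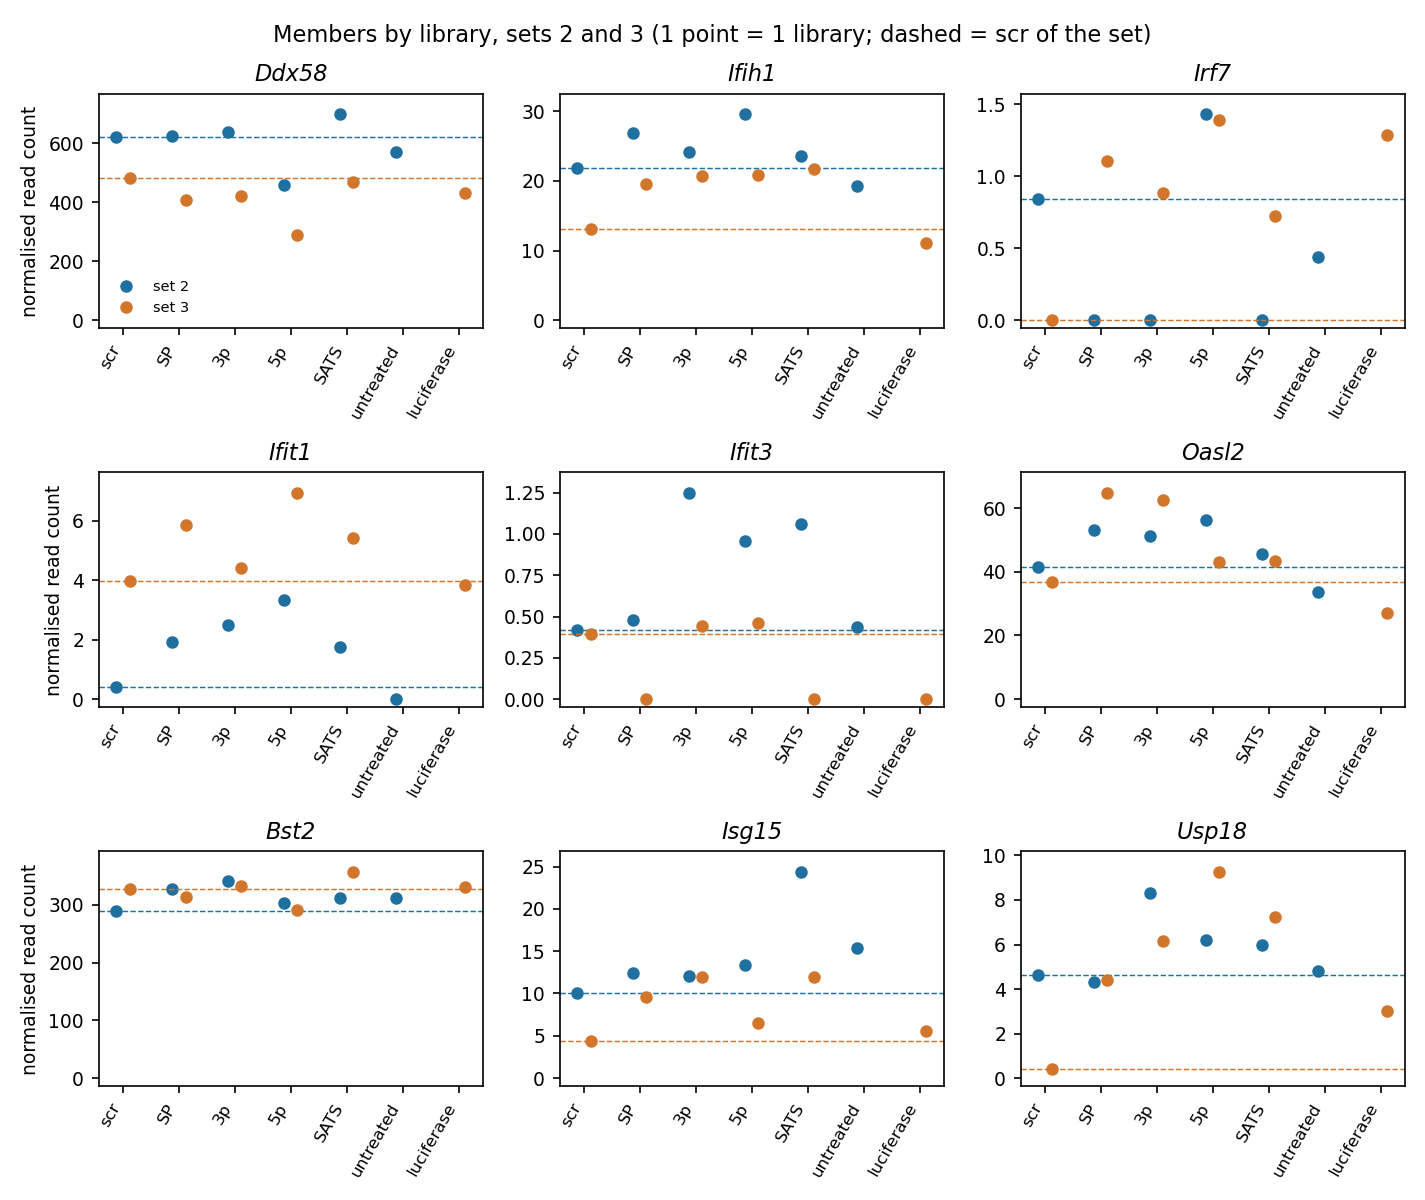
Normalised read count (vertical axis, from 0) of each of the 9 members in the 12 libraries of sets 2 (blue) and 3 (orange), by treatment; each point is 1 library and dashed lines mark scr of the set. *Ddx58* is lowest in 5p of both sets (459 and 288), and *Isg15* is highest in SATS of both sets (24.3 and 11.9).

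The first question was whether the sensors changed when *Stag1* was knocked down. In set 2 *Ddx58* was at 620 in scr, 624 in SP, 638 in 3p, 459 in 5p, 698 in SATS and 571 in untreated cells. In set 3 it was at 481 in scr, 407 in SP, 421 in 3p, 288 in 5p, 468 in SATS and 429 with luciferase siRNA. The 5p library was the lowest of its set both times, and all libraries of set 3 were below their counterparts of set 2. Against scr of the same set, *Ddx58* under 5p was at 74.1% (exact 95% interval of the read ratio 68.2 to 80.4, counting error only) and 59.9% (54.3 to 66.1). These rest on 962 and 623 reads in 5p and 1478 and 1212 in scr. No other treatment was below 84.6% of scr in these sets.

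With limma on log2(value + 1) over the 10 libraries of scr, SP, 3p, 5p and SATS, without a term for the set, the 5p difference in *Ddx58* was -0.58 (SE 0.341), with a Benjamini-Hochberg adjusted p of 1.00. That fit called 0 of the 7 members tested, where 0.0121% of 16490 genes were called, and 1 member had an unadjusted p under 0.05. With the set added as a block (replicate block) the difference was the same, its SE was 0.0912 (95% interval -0.78 to -0.39), and limma's adjusted p was 0.00415. The blocked fit called 1 of 7 members, *Ddx58*, where 2.37% of genes were called. edgeR's quasi-likelihood test on recovered reads gave an adjusted p of 0.00497 with the block. *Ifit3* and *Irf7* had a summed value under 10 in these libraries and were not tested. Without scr of set 3 the blocked difference was -0.46 (limma adjusted p = 0.142) and without 5p of set 3 it was -0.52 (adjusted p = 0.0912), so the call needs those 2 libraries. Without any other of the 10 libraries the adjusted p stayed under the threshold.

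The other 3 treatments against *Stag1* gave no call in *Ddx58*. Its blocked log2 difference was -0.12 in SP (95% interval -0.31 to 0.08), -0.07 in 3p (-0.27 to 0.12) and 0.07 in SATS (-0.13 to 0.26), with limma adjusted p of 0.655, 0.832 and 0.744. In set 3 scr was the highest library. Counting intervals there lay below 100% of scr in SP (77.9 to 91.8), 3p (80.4 to 95.4) and luciferase (82.1 to 97.2), but not in SATS (89.9 to 105). In set 2 those of SP and 3p included 100%, that of SATS lay above it (105 to 121) and that of untreated below it (85.5 to 99.4). In set 1 *Ddx58* was at 703 in scr and at 715, 701 and 540 in SP 1a, 1b and 1c, with 67 to 218 reads, and all 3 intervals of the ratio included 100%. The difference between 5p and the other KDs was itself tested, in comparisons added after these values were seen. With the block, limma gave -0.51 for 5p against 3p (adjusted p = 0.00737), -0.47 against SP (adjusted p = 0.00945) and -0.65 against SATS (adjusted p = 0.00140). In each of them *Ddx58* was the only 1 of 7 members called, where 3.26%, 5.76% and 6.42% of genes were called. Without the block limma, edgeR and DESeq2 called no member in any of the 3, and limma gave no member an unadjusted p under 0.05. Leaving out a library ended the call against 3p for 3p of set 3 (adjusted p = 0.0547) and 5p of set 3 (0.145), and against SP for SP of set 2 (0.0894), SP of set 3 (0.0727) and 5p of set 3 (0.140). The call against SATS held with each library left out.

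*Ifih1*, the sensor of long double-stranded RNA, did not pass the test in any KD. In set 2 it was at 21.8 in scr, 26.8 in SP, 24.1 in 3p, 29.6 in 5p, 23.6 in SATS and 19.3 in untreated cells. In set 3 it was at 13.1 in scr, 19.5 in SP, 20.7 in 3p, 20.8 in 5p, 21.7 in SATS and 11.1 with luciferase siRNA. All 4 treatments against *Stag1* lay above scr in both sets, and untreated and luciferase lay below it. The counts were 26 to 67 reads, and the blocked log2 differences from scr of 0.38 (3p) to 0.53 (5p) had limma adjusted p of 0.248 to 0.571. The factor *Irf7*, which amplifies interferon production, had at most 3 reads in any library and none in 8 of the 16, so no difference was detectable at this depth.

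**Figure D2:**
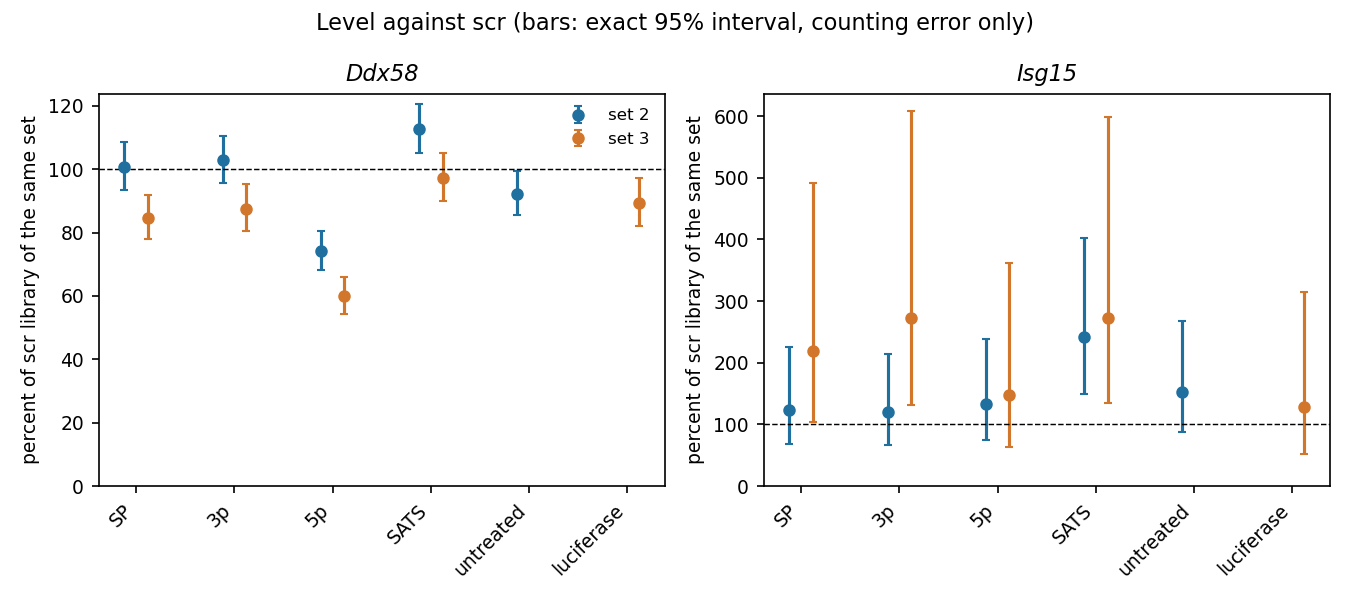
Level of *Ddx58* (left) and *Isg15* (right) as a percentage of scr in its own set (vertical axis, from 0), by treatment, for sets 2 (blue) and 3 (orange); bars are exact 95% intervals for counting error. *Ddx58* under 5p is at 74.1% and 59.9%, and *Isg15* under SATS is at 242% and 273%, with wide intervals.

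Of the effectors, *Oasl2*, an OAS-like protein, had enough reads to be followed (63 to 176). In set 2 it was at 41.5 in scr, 53.2 in SP, 51.1 in 3p, 56.3 in 5p, 45.5 in SATS and 33.7 in untreated cells. In set 3 it was at 36.9 in scr, 64.7 in SP, 62.5 in 3p, 43.0 in 5p, 43.3 in SATS and 26.9 with luciferase siRNA. As with *Ifih1*, the 4 treatments against *Stag1* were above scr in both sets, and untreated and luciferase were below it. The blocked log2 difference was 0.57 in SP (95% interval 0.17 to 0.97) and 0.52 in 3p (0.12 to 0.92), with limma adjusted p of 0.203 and 0.332, so neither passed. In 5p and SATS it was 0.32 and 0.18.

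*Ifit1*, which binds viral RNA ends, had 0 to 16 reads. It was at 0.419 in scr of set 2, from 1 read, and at 3.97 in scr of set 3, and again the 4 treatments against *Stag1* were above scr in both sets (1.76 to 3.34 and 4.40 to 6.94). The highest library of both sets was 5p, where limma's adjusted p with the block was 0.159. *Ifit3* had at most 3 reads in any library.

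*Bst2*, the membrane tether of budding virus particles, was the steadiest member in sets 2 and 3. It ran from 289 in scr to 342 in 3p in set 2 and from 291 in 5p to 356 in SATS in set 3. Blocked log2 differences from scr lay between -0.05 (5p) and 0.13 (3p), with limma adjusted p of 0.563 to 0.864 and intervals within -0.27 to 0.35. In set 1 the 3 SP libraries were at 418, 444 and 467 against 275 in scr, which is 152% to 170% of it, from 58 to 138 reads against 41. All 3 intervals of the ratio lay above 100% (104 to 226, 113 to 235 and 112 to 260). With set 1 included, its 3 SP libraries entering as their mean, the SP difference in *Bst2* was 0.27 (95% interval -0.19 to 0.73). In sets 2 and 3 SP was at 114% and 96.0% of scr.

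The ISG15 system gave the other call, in SATS against scr. Target and kind of siRNA cannot be told apart in that comparison. *Isg15* in set 2 was at 10.1 in scr, 12.5 in SP, 12.1 in 3p, 13.4 in 5p, 24.3 in SATS and 15.3 in untreated cells. In set 3 it was at 4.36 in scr, 9.56 in SP, 11.9 in 3p, 6.48 in 5p, 11.9 in SATS and 5.56 with luciferase siRNA. SATS was highest in both sets, in set 3 level with 3p, and scr was the lowest library of both sets. Against scr, SATS was at 242% (exact 95% interval 150 to 402, 69 against 24 reads) and 273% (135 to 599, 33 against 11 reads). The log2 difference was 1.23. Without the block its SE was 0.502 and limma's adjusted p 1.00, and that fit called 0 of 7 members, where 0% of genes were called and 2 members had an unadjusted p under 0.05. With the block the SE was 0.302 (95% interval 0.58 to 1.88), limma's adjusted p was 0.0465 and edgeR's was 0.0422. *Isg15* was the 1 of 7 members called, where 2.64% of genes were called. The call is close to the threshold: leaving out scr or SATS of set 2 gave adjusted p of 0.137 and 0.195, leaving out scr or SATS of set 3 gave 0.394 and 0.361, and leaving out SP of set 2 or set 3 gave 0.0563 and 0.0562. In the other 3 KDs the blocked difference was 0.63 (SP), 0.75 (3p) and 0.43 (5p), with limma adjusted p of 0.395 to 0.535.

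*Usp18*, which removes ISG15 from proteins and restrains the interferon receptor, rested on few reads. It had 1 read in scr of set 3 (0.397), while the other libraries of that set had 7 to 20 (2.99 to 9.25), luciferase included. In set 2 scr was at 4.61 from 11 reads, and the KDs were at 4.31 to 8.31. The blocked log2 differences of 0.94 to 1.62 did not pass in any KD (limma adjusted p of 0.109 to 0.459).

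**Figure D3:**
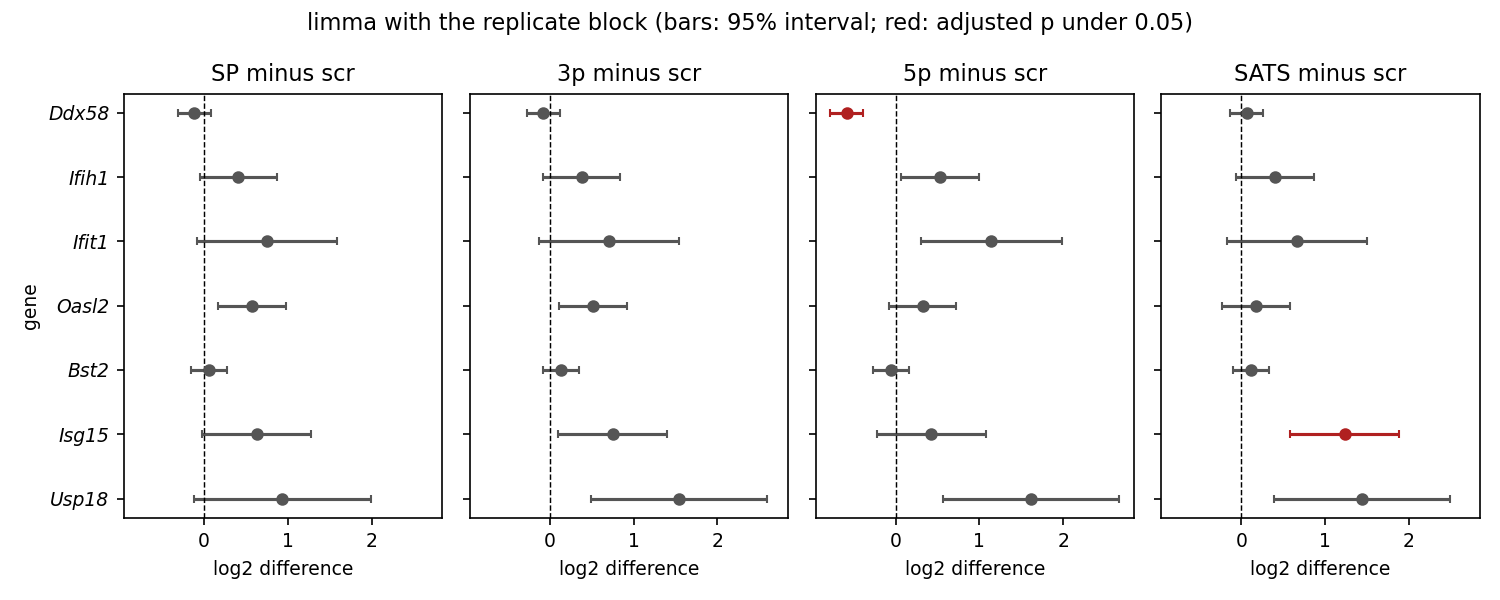
Log2 difference from scr (horizontal axis) for the 7 members tested (rows) in SP, 3p, 5p and SATS, from limma with the replicate block; points are estimates, bars 95% intervals, and red marks an adjusted p under 0.05. The 2 red points are *Ddx58* in 5p (-0.58) and *Isg15* in SATS (1.23).

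Across the members, then, SP and 3p gave no call under either fit. limma called 0 of 7 members in SP, where 0.00606% of genes were called without the block and 0.746% with it, and 0 of 7 in 3p, where these shares were 0.00606% and 0.285%. Without the block 1 member in SP and 2 in 3p had an unadjusted p under 0.05, and edgeR and DESeq2 on recovered reads called none. Over 3 sets, limma called 0 of 7 members for SP, where 0% of 15970 genes were called by the fits with and without the block. Unadjusted p was under 0.05 for no member without the block and for 1 with it, *Oasl2*, and edgeR and DESeq2 called no member. Of the 7 members tested, 6 in SATS, 6 in 3p, 5 in 5p and 4 in SP were above scr in both sets. Over all genes tested these shares were 32.4%, 25.9%, 32.7% and 28.5%. The KDs share their scr libraries, and scr was the lowest library of both sets in *Isg15* and of set 3 in *Usp18*. The median log2 difference of the 7 was 0.40 in SATS, 0.57 in SP, 0.52 in 3p and 0.43 in 5p, beside medians over all genes of 0.00 to 0.01.

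The controls were compared next, in 1 fit over the 12 libraries of sets 2 and 3 that kept the replicate block and in which untreated and luciferase, with 1 library each, were assumed to vary like the other groups. limma called 0 of 7 members between luciferase and scr, where 0.00599% of 16684 genes were called, and 0 of 7 between untreated and scr, where 0% were called. No member had an unadjusted p under 0.05 in either, and edgeR called none. The largest luciferase difference below scr was that of *Oasl2* (-0.52, 95% interval -1.04 to 0.00, adjusted p = 1.00). In untreated cells *Isg15* was 0.75 above scr (-0.07 to 1.57) and *Ddx58* 0.22 below it (interval -0.47 to 0.03). Against scr of set 2 alone, *Isg15* was at 152% and *Ddx58* at 92.2%. The largest untreated differences were those of *Usp18* (0.89) and *Ifit1* (-0.83), which rest on few reads.

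The SATS mixture was then set against each of these, of which luciferase is the siRNA prepared in the same way. limma called 0 of 7 members between SATS and luciferase, where 0.114% of genes were called, and 0 of 7 between SATS and untreated, where 2.48% were called. Unadjusted p was under 0.05 for 3 and 2 members, and edgeR called none. *Isg15* was 1.13 higher in SATS than with luciferase siRNA (95% interval 0.31 to 1.95, adjusted p = 0.217) but 0.48 higher than in untreated cells (-0.34 to 1.31, adjusted p = 0.547). *Oasl2* was 0.69 and *Ifih1* 0.77 higher than with luciferase siRNA (adjusted p = 0.230 and 0.246). With 1 library each of luciferase and untreated, a missing call here says little. The 2 members below that unadjusted level against untreated were *Ifit1* and *Ddx58*. *Ifit1* was 1.50 higher in SATS (95% interval 0.42 to 2.58, limma adjusted p = 0.126) and *Ddx58* 0.28 higher (0.04 to 0.53, limma adjusted p = 0.205). The shares of genes called moved with single libraries: the count in SATS against luciferase was 19 with all libraries, 4 without SATS of set 3 and 484 without SATS of set 2, and that against untreated was 414 with all, 2 without SATS of set 3 and 76 without scr of either set.

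The rest of the pathway was examined through gene lists. Of 21 interferon ligand genes, 2 were in the table, *Ifna13* and *Ifnk*, and both had 0 reads in every library (3 reads would be a value of at most 1.44 in sets 2 and 3), and the other 19 were not analysed here. All 14 receptor and Jak-Stat genes were expressed. Their levels in sets 2 and 3 averaged 1017 for *Ifnar1* and 84.5 for *Ifnar2*, the chains of the type I receptor. For the kinases of that receptor they averaged 1210 (*Jak1*) and 488 (*Tyk2*), and for *Jak2*, another JAK kinase, 377. *Stat2* and *Irf9*, which take part in the factor that binds the response element, averaged 248 and 113. Further averages were 102 (*Ifngr1*) and 161 (*Ifngr2*), the receptor chains for type II interferon, 33.0 (*Ifnlr1*) and 39.6 (*Il10rb*), those for type III, and 61.1 (*Socs1*) and 731 (*Socs3*), inhibitors of the pathway. Messages of the receptor chains and their factors were thus present, while the 2 ligands had none. Without the block, limma called none of the 125 genes of the other lists in any of the 4 KDs, and 2 to 8 of them had an unadjusted p under 0.05. All calls below are from the fit with the block and rest on single libraries. Without scr of set 2, none of the 13 calls against scr described here was kept, and without scr of set 3 only that of *Ptgs2*. Over all genes, leaving out 1 library took the number called in SATS from 436 to between 3 and 722, in SP from 123 to between 6 and 192, in 3p from 47 to between 2 and 72 and in 5p from 391 to between 20 and 528. The fewest were left without SATS of set 3 for SATS, and without scr of set 3 for SP, 3p and 5p.

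In SATS, 4 of 125 genes were called (3 higher and 1 lower), which is 3.2%, near the 2.64% of all genes. Those higher were *Gbp3* (0.75, limma adjusted p = 0.0220), an interferon-induced GTPase, *Ifngr2* (0.64, 0.0190) and *B2m* (0.49, 0.0221), the light chain of MHC class I. For example, *B2m* was at 568 and 298 in SATS against 409 and 209 in scr of sets 2 and 3. *Gbp3* and *Ifngr2* were above scr in the other KDs too. *Gbp3* was at 104 and 41.3 in scr and 149 and 82.7 in SATS, with 145 and 62.1 in SP, 146 and 71.4 in 3p and 147 and 59.2 in 5p. *Ifngr2* was at 157 and 101 in scr and 236 and 164 in SATS, with 188 and 139 in SP, 203 and 158 in 3p and 212 and 135 in 5p. The 1 lower was *Pml* (fell by 0.30, adjusted p = 0.0424), a nuclear body protein. Against untreated cells, the blocked log2 differences of SATS were 0.57 in *B2m*, 0.66 in *Ifngr2* and 1.21 in *Samd9l*, a restriction factor. Luciferase, the control of the same kind as SATS, was present in set 3 only. There *B2m* was at 298 in SATS and 228 with luciferase siRNA, *Ifngr2* at 164 and 97.5, and *Samd9l* at 108 and 72.7. With 1 library of each control, no call is drawn from these differences.

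In SP, 2 of 125 were called (1.6%, against 0.746% of all genes), both higher and both in antigen presentation (2 of 11): *Tap1* (0.57, limma adjusted p = 0.0283), the peptide transporter, and *Tapbp* (0.47, 0.0284), tapasin. *Tap1* was at 352 and 288 in SP and at 300 and 292 in 3p, against 232 and 198 in scr. *Tapbp* was at 2167 and 1409 in SP and at 1807 and 1250 in 3p, against 1596 and 996 in scr. Both genes were thus above scr in 3p too, though not called there. In 3p, 0 of 125 were called by limma, where 0.285% of all genes were called. Its unadjusted p was under 0.05 for 26 of the 125 and for 1720 of 16490 genes.

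In 5p, the KD in which *Ddx58* fell, 7 of 125 were called (5 higher and 2 lower), which is 5.6%, against 2.37% of all genes. Among 18 other RNA and DNA sensors tested, 2 rose: *Aim2* (0.60, limma adjusted p = 0.0196), a sensor of cytoplasmic DNA, and *Tlr3* (1.31, 0.0146), the endosomal receptor of double-stranded RNA. *Aim2* was at 157 and 328 in 5p against 111 and 201 in scr. *Tlr3* was at 38.7 and 25.9 in 5p against 11.7 and 12.7 in scr, and no other library of sets 2 and 3 was above 19.5. Its mean value of 17.5 is under the level of 20 set for naming genes, and it was singled out after its values were seen. Among 50 other effectors, 3 rose: *Samd9l* (0.77, adjusted p = 0.0400), *Gbp7* (0.63, 0.0456) and *Trim21* (0.60, 0.0256), an intracellular antibody receptor. *Samd9l* was at 84.0 and 108 in 5p against 39.4 and 78.1 in scr, and at 68.1 and 108 in SATS. *Trim21* was highest in 5p of both sets (109 and 118). *Gbp7* was at 99.3 and 68.0 in 5p against 64.2 and 43.6 in scr. Its rise was not particular to 5p: it was at 86.7 and 71.7 in SP, 88.5 and 71.8 in 3p and 99.8 and 60.7 in SATS.

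The 2 genes that fell in 5p were both NF-kB targets (2 of 12 tested). *Ptgs2*, the inducible cyclooxygenase, fell by 1.20 on the log2 scale (limma adjusted p = 0.0033), from 227 and 98.0 in scr to 95.4 and 43.0 in 5p. *Csf1*, the macrophage growth factor, fell by 0.78 (adjusted p = 0.0238), from 1431 and 304 in scr to 991 and 149. In *Ptgs2* SP and 3p of set 2 were also low (114 and 128), with 231 in SATS and 271 in untreated cells. The list was written with earlier results of these data known, so its shares and medians are a description. Of the 12 targets 7 (58.3%) were below scr in both sets, against 30.1% of all genes, and 1 was above it. Their median was -0.32, whereas the medians of the other 5 lists in 5p lay between 0.00 and 0.20. In SP, 3p and SATS the median of the NF-kB targets was 0.18, 0.11 and 0.18. *Csf1* and *Ptgs2* were higher in set 2 than in set 3, and so were the fibroblast markers, which in 5p summed to 2750 and 384 against 2956 and 582 in scr. Their part in these results was not tested.

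Against the other KDs, with the block, limma called 5 of 125 listed genes between 5p and 3p (3 higher and 2 lower in 5p), 16 between 5p and SP (7 higher and 9 lower) and 11 between 5p and SATS (4 higher and 7 lower). These are 4%, 12.8% and 8.8% of the listed genes, against 3.26%, 5.76% and 6.42% of all genes. With 1 library left out, *Csf1* remained called in 8, 8 and 10 of 10 cases against 3p, SP and SATS, and *Aim2* in 8 and 9 of 10 against 3p and SP. *Csf1* was lower in 5p in all 3, by log2 differences of -0.98 from 3p (limma adjusted p = 0.00471), -0.95 from SP (0.00447) and -1.27 from SATS (0.000802). *Aim2* was higher in 5p than in 3p (0.67, adjusted p = 0.00793) and SP (0.81, 0.00190). The calls of other genes in these comparisons are not named here, and most were lost with some single library left out. Without the block limma called none of the 125 in these 3 comparisons, with 5 to 8 at an unadjusted p under 0.05.

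**Figure D4:**
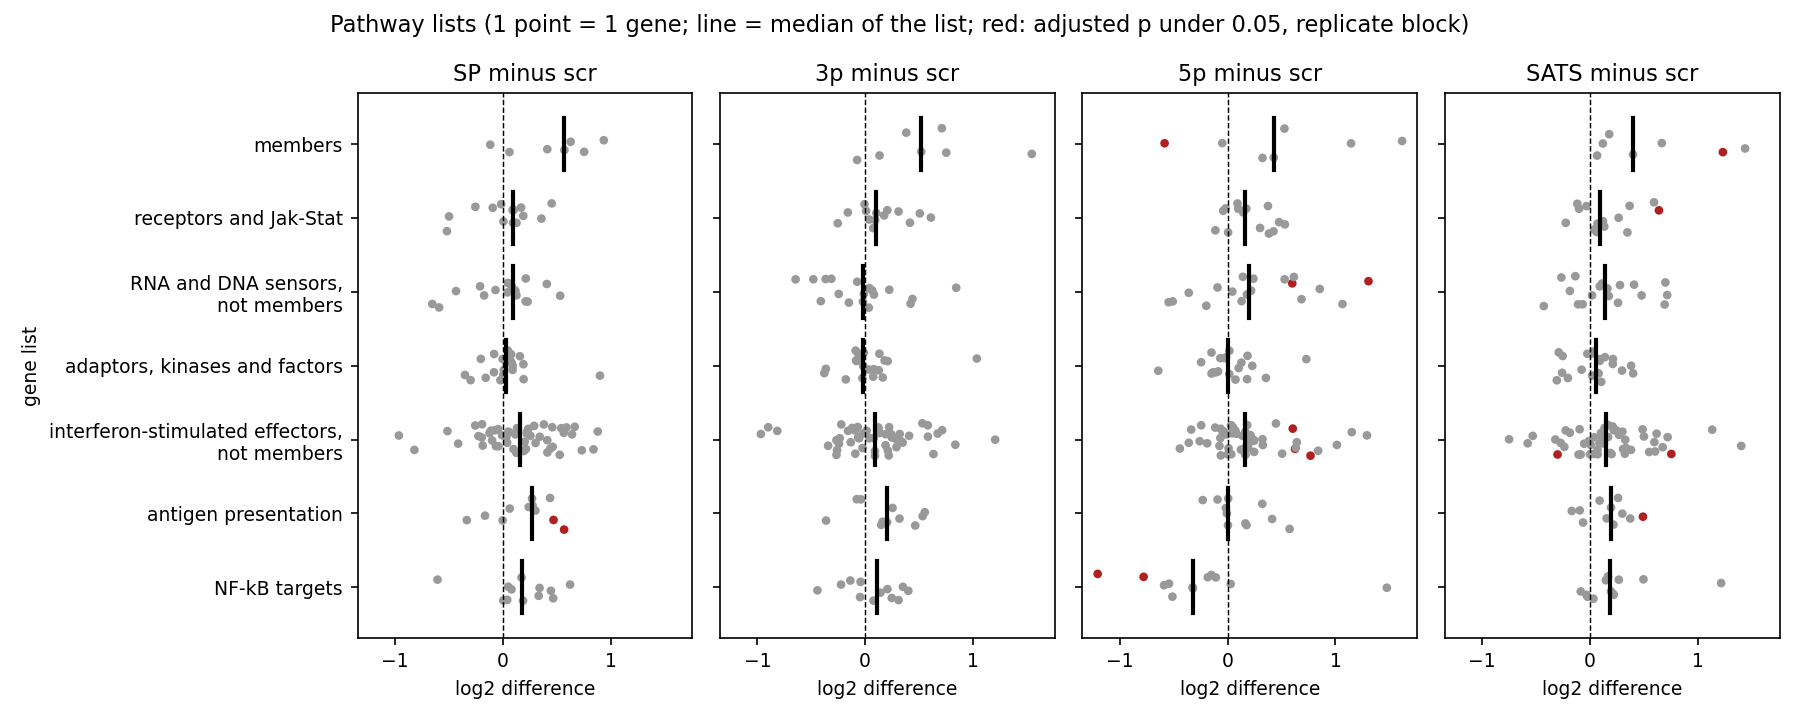
Log2 difference from scr (horizontal axis) for the genes of 7 lists (rows) in SP, 3p, 5p and SATS; each point is 1 gene, black lines are list medians, and red marks an adjusted p under 0.05 with the replicate block. Most points lie near 0, and the NF-kB targets in 5p have their median at -0.32.

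Last, the genes of the whole table whose pattern was most like that of the members were listed. The pattern was the mean over *Ddx58*, *Bst2*, *Oasl2* and *Ifih1*, the 4 members with a mean value of at least 20, each as log2(value + 1) minus the mean of its set, over the 12 libraries of sets 2 and 3. Among 12384 genes the 10 highest Pearson coefficients were those of *Nudt11* (0.98), *Myl9* (0.96), *Kbtbd6* (0.96), *Fut4* (0.92), *Pmepa1* (0.90), *Hip1r* (0.90), *Smurf2* (0.90), *Lhfpl2* (0.89), *Rhpn2* (0.89) and *Cyp51* (0.89). Without both SATS libraries 4 of the 10 were still among the first 10, and the lowest rank was 78. None of the 10 was in a pathway list. All points share the libraries and their size factors, and the mean joins members that moved in different directions, so the list is a description only.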

How the data were processed

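RNA-seq of serum-grown mESCs was taken from 1 table of 16 libraries; the 2 samples in 2i medium were left out, and a table of set 1 alone was not used. The authors aligned reads to mm10 with hisat2, counted them with featureCounts and divided the counts by size factors of DESeq2 1.14.1. The deposited values are thus a normalised signal, not counts. Methods give reverse-stranded counting for paired-end samples, and single-end libraries are not named. Dividing each column by its smallest non-zero value gave whole reads for 100% of values (tolerance 0.001). Of 18659 genes, 1503 had a summed value under 10.

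log2(value + 1) was fitted with limma 3.58.1 (eBayes with trend, two-sided, R 4.3.3) using only genes whose values in the fitted libraries added up to 10 or more. The threshold was 0.05 for p adjusted by Benjamini-Hochberg. The 3 SP libraries of set 1 were averaged to 1 sample. Same-numbered libraries deviated together (correlation of deviations from group means 0.772 to 0.823 for the 3 pairs of SP and scr, 0.809 to 0.934 in sets 2 and 3, over genes with a mean of at least 50), and the labels give the set numbers. The blocked values are therefore printed where they change a call. edgeR 4.0.16 and DESeq2 1.42.0 on recovered reads, other pseudocounts, no filter, TMM factors and single libraries left out were alternatives. The scripts were tested on simulated data. Ratios of single libraries have exact Clopper-Pearson 95% intervals, and intervals and the floor of 3 reads cover counting error only. Gene lengths and exons are from GENCODE (GRCm38), and promoters are from RefSeq (GRCm38.p6), leaving out chromosome 18.

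Members and lists were chosen with earlier results of these data known. Genes named were all 9 members, *Stag1*, listed pathway genes called with a mean value of at least 20 (at most 8 per direction), the receptor and Jak-Stat genes, and the 10 genes most like the members. The values of 1 listed gene are not reported here.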

Additional observations from a re-analysis of the deposited data

Results flagged for a closer look

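Only the 5 SP libraries formed a group large enough to look for a library apart from the rest. Chance sets 1 in 20 such groups apart where values are continuous, which counts of a few reads are not. *Ifit3* in SP 1c was at 8.05, from 1 read, while the other 4 were at 0.479 or lower. The 0.479, in SP of set 2, was also 1 read, so the gap reflects only what 1 read was worth. *Irf7* in SP of set 3 was at 1.10, from 3 reads, while the other 4 were at 0. With the others at 0 any read would have set a library apart, so neither flag says anything about a library.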

How the results depend on the processing

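With the replicate block the number of members called went from 0 to 1 in SATS against scr and in 5p against scr, 3p, SP and SATS, under limma, edgeR and limma on TMM-scaled values without *Rn45s* (the last chosen after seeing the data). The *Ddx58* difference of 5p from scr was then -0.58, -0.59 and -0.59. The block changed no other call among the members, and in the pathway lists each call came from it. The counts of genes called in SATS, SP, 3p and 5p against scr went from 0, 1, 1 and 2 to 436, 123, 47 and 391 with all libraries, and without the block DESeq2 called 3, 16, 8 and 65. With the block and 1 library left out they fell as low as 3, 6, 2 and 20. No other alternative run, among pseudocounts, filter, scaling, tools and single libraries left out, gave a member call without the block. With the block and 1 library left out (chosen after seeing the data), log2 differences ran -0.71 to -0.46 for *Ddx58* in 5p against scr (8 of 10 called), -0.57 to -0.44 for *Ddx58* in 5p against 3p (8 of 10 called), -0.53 to -0.40 for *Ddx58* in 5p against SP (7 of 10 called), -0.72 to -0.59 for *Ddx58* in 5p against SATS (10 of 10 called) and 0.99 to 1.47 for *Isg15* in SATS against scr (4 of 10 called).

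Of 940 alternative values of 50 member differences, 23 changed sign, none of them a called value. Of these, 3 came from dropping the block from the control fit, which set libraries of different sets against each other: *Isg15* in luciferase (-0.23), *Ddx58* in untreated (0.065) and *Ifih1* in untreated (0.18). The other 20 came from leaving out 1 library, with ranges as follows. In SATS against scr the range was for *Ddx58* -0.22 to 0.35, *Ifit1* -0.24 to 1.57. In SP against scr the range was for *Bst2* -0.028 to 0.15, *Ddx58* -0.42 to 0.19, *Ifit1* -0.15 to 1.66, *Usp18* -0.067 to 1.94. In 3p against scr the range was for *Ddx58* -0.37 to 0.22, *Ifit1* -0.19 to 1.61. In 5p against scr the range was for *Bst2* -0.14 to 0.040, *Isg15* -0.095 to 0.95. In SP against scr over 3 sets the range was for *Ddx58* -0.27 to 0.10, *Oasl2* -0.60 to 1.39. In luciferase against scr the range was for *Ddx58* -0.16 to 0.087, *Isg15* -0.18 to 0.29. In untreated against scr the range was for *Ifih1* -0.17 to 0.21. With the mean of the set as the reference in place of scr, 8 of 32 shares moved beyond their spread. Without both SATS libraries the 10 genes most like the members had coefficients of 0.88 to 0.98, and 4 of them stayed among the first 10. Spacings of 1 to 3 bases within the core left the share of members with the core at 75.0%, beside 9.91% of genes. For SATS against untreated, 414 genes passed, and none with no filter on low values. For SP over 3 sets, limma called 0 genes with the block and edgeR 60. Depth limits *Ifit3*, *Irf7*, *Ifit1* and *Usp18* most, and 2 libraries per KD limit every test.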
